A study of Brachypodium distachyon with 20 samples.

Results

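Bradi4g02600.1, Bradi2g04910.1, Bradi2g11120.1, Bradi1g14240.2, Bradi2g07770.1 and Bradi2g31820.1 are 6 gene models of the grass Brachypodium distachyon listed as Aux/IAA genes. They were picked for their high levels in the seed coat (SEC) libraries. They make up 6 of the 23749 genes in the deposited expression table, and all 6 were among the 22902 genes that passed the filter on low values and were tested. Because the SEC values chose these genes, their SEC levels are a description and carry no test. The deposited table holds no annotation, so the family assignment was taken as listed, and no name or separate role is given to a single gene.

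Aux/IAA proteins are short-lived nuclear repressors of the auxin response. They bind ARF transcription factors at auxin-responsive genes and recruit TOPLESS-type corepressors there, and auxin joins them to TIR1/AFB receptors, which mark them for degradation. Many Aux/IAA genes are themselves induced by auxin, so the pathway feeds back on its own repressors. The seed coat is maternal tissue, whereas embryo and endosperm are products of fertilisation, and auxin is known from Arabidopsis to pattern the embryo from its first divisions.

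RNA-seq was made from tissue dissected by hand from grains of the line Bd21, from emasculated and hand-pollinated spikelets, with no treatment or mutant. The 10 groups had 2 libraries each and were seed coat (SEC), early endosperm (EEN), late endosperm (LEN) and embryos at the 2-cell and quadrant (TCQ), pro-embryo (PEM), transition (TRA), leaf early (LEE), leaf middle (LEM), leaf late (LEL) and mature (MAT) stages. The study matched EEN with TRA, and LEN and SEC with LEL. By its methods each library was a pool of embryos or grains. The labels say that embryos were taken off to leave the seed coat, whereas the methods say that embryo and endosperm were both removed.

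Levels are log2 CPM (read counts scaled to library size, on a log2 scale), so that a difference of 1 is a 2-fold difference. The lowest value that libraries shared differed between genes, from −6.53 to 2.74 log2 CPM over 3862 genes, so a factor of its own may enter each gene's values. Levels are therefore compared within a gene and not between genes. Low values moved in steps of 1 read, which gave the reads behind each value and the relative depth of the libraries. SEC replicate 1 was the shallowest library and LEE replicate 2 the deepest, at 2.36 times its depth. For 5 of the 6 genes all 20 values came out as whole reads (within 0.02 of a read), while for Bradi2g11120.1 only 8 of 20 did, so its read numbers are estimates and its level may hold reads divided between gene models. Over all tested genes each of the 20 libraries correlated best with its own replicate. The r between the SEC libraries was 0.987, and that of SEC with any other library was 0.601 to 0.685.

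In the seed coat, both SEC libraries lay above all 18 other libraries for 6 of the 6 genes, and 17.9% of the tested genes showed the same. The genes were picked on these values, so nothing is read from that count. Bradi4g02600.1 stood at 8.05 and 8.02 log2 CPM in SEC (5433 and 5834 reads), against −1.93 and −1.28 in EEN, −3.12 and −2.60 in LEN and 2.09 to 6.02 in the 14 embryo libraries. Its SEC mean of 8.04 ± 0.01 (SD, n = 2) exceeded that of the next group, LEL, by 2.08 (4.23-fold) and that of LEN by 10.89. The seed coat thus lay far above the endosperm and moderately above the late embryo.

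Bradi1g14240.2 had the same order at the top, with 5.01 and 4.96 log2 CPM in SEC (252 and 266 reads), no read in any of the 4 endosperm libraries and −0.44 to 2.46 in the embryo. The SEC mean exceeded that of LEL, again the next group, by 2.66 (6.34-fold). If 3 reads are taken for each endosperm group in place of none, EEN was 201-fold lower than SEC and LEN 184-fold lower. As SEC levels chose the gene, these ratios are a description and not a tested limit.

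Bradi2g04910.1 was the gene whose next group was an endosperm. It had 7.31 and 7.27 log2 CPM in SEC, 4.47 and 4.48 in EEN, 5.53 and 5.50 in LEN and 0.96 to 4.90 in the embryo. SEC exceeded LEN by 1.77 (3.42-fold) and LEL by 4.20. Seed coat and endosperm libraries did not overlap, and LEN lay above every embryo library.

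Bradi2g11120.1 had 5.75 and 6.15 log2 CPM in SEC (about 420 and 604 estimated reads), −1.03 and −0.59 in EEN, 1.44 and 1.25 in LEN and −1.82 to 3.05 in the embryo. Its next group was PEM, 3.01 below SEC (8.08-fold), and SEC exceeded LEL by 7.20. Its SEC libraries were also the least alike of the 6 genes, with an SD of 0.28.

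The last pair had the smallest lead of the seed coat. Bradi2g07770.1 had 9.42 and 9.47 log2 CPM in SEC, against 3.25 and 3.14 in EEN, 5.29 and 5.11 in LEN and 6.38 to 8.35 in the embryo. Bradi2g31820.1 had 8.35 and 8.34 log2 CPM in SEC, against 3.11 and 3.29 in EEN, 4.76 and 4.77 in LEN and 4.84 to 6.73 in the embryo. SEC exceeded TCQ, the next group of Bradi2g07770.1, by 1.15 (2.22-fold), and exceeded TRA, the next group of Bradi2g31820.1, by 1.61 (3.06-fold). On a linear scale SEC held 30.9% of the sum of the 10 group levels for Bradi2g07770.1 and 36.4% for Bradi2g31820.1, against 50.7% for Bradi2g04910.1, 61.9% for Bradi1g14240.2, 64.3% for Bradi4g02600.1 and 70.4% for Bradi2g11120.1. In such bulk samples fewer cells of a type and less RNA per cell cannot be told apart.

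**Figure D1:**
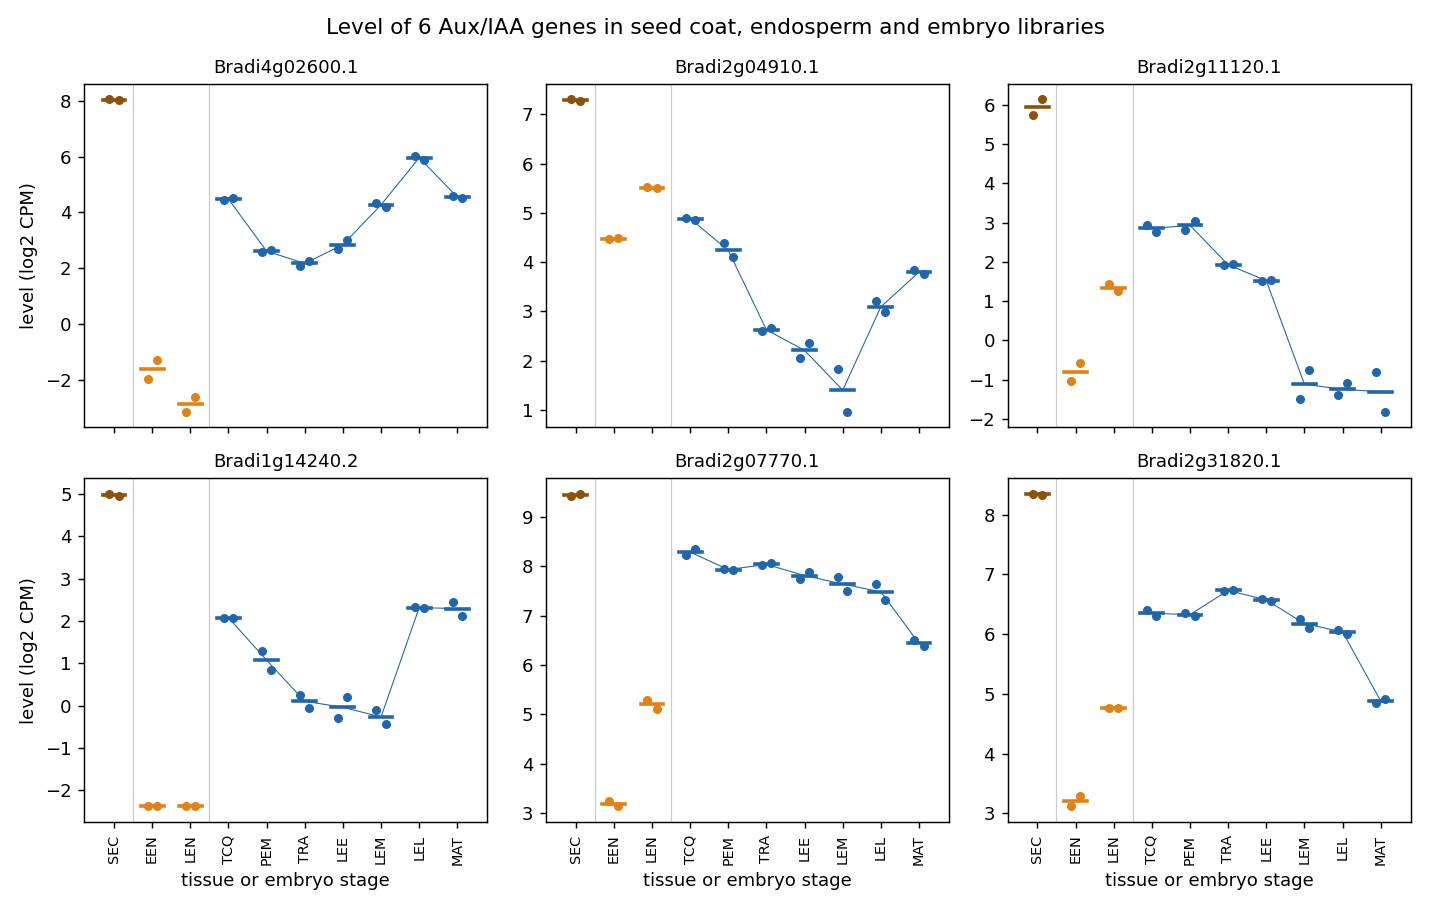
Level (log2 CPM, each panel with its own axis) of the 6 genes in every library, with seed coat in brown, endosperm in orange and embryo stages in blue; points are libraries, short bars are the means of 2 libraries, and lines join the embryo means. Both SEC points lie above all other points in each panel. The embryo stages follow a dip in the upper left, upper middle and lower left panels. In the other panels they end lower at MAT than at TCQ, with a peak at TRA in the lower right panel.

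The embryo stages were not used to pick the genes. All 6 genes differed among the 7 stages in limma's F-test with Benjamini-Hochberg adjustment over all tested genes (adjusted p between 1.5e-10 and 2.4e-08), as did 93.3% of the tested genes. Between the highest and the lowest stage the means differed by 4.24 for Bradi2g11120.1, 3.78 for Bradi4g02600.1, 3.49 for Bradi2g04910.1, 2.59 for Bradi1g14240.2 and 1.85 for each of Bradi2g07770.1 and Bradi2g31820.1.

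Counted by step in limma at an adjusted p under 0.05, 4 of 6 genes fell and 0 rose in PEM against TCQ, where 53.3% of tested genes changed (28.7% rose and 24.6% fell). In TRA against PEM 3 fell and 1 rose, where 29.3% of tested genes changed (13.4% rose and 15.9% fell). In LEE against TRA 1 rose and 0 fell, where 21.9% changed (11.2% rose and 10.7% fell). In LEM against LEE 3 fell and 1 rose, where 51.9% changed (25.0% rose and 26.9% fell). In LEL against LEM 3 rose and 0 fell, where 37.1% changed (18.4% rose and 18.7% fell). In MAT against LEL 3 fell and 1 rose, where 52.5% changed (24.7% rose and 27.9% fell). Over the 6 steps in stage order, the median difference of the 6 genes was −0.50, −0.71, −0.19, −0.31, 0.78 and −0.55, where that of all tested genes was 0.05, −0.01, 0.01, −0.04, 0.00 and −0.01.

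**Figure D2:**
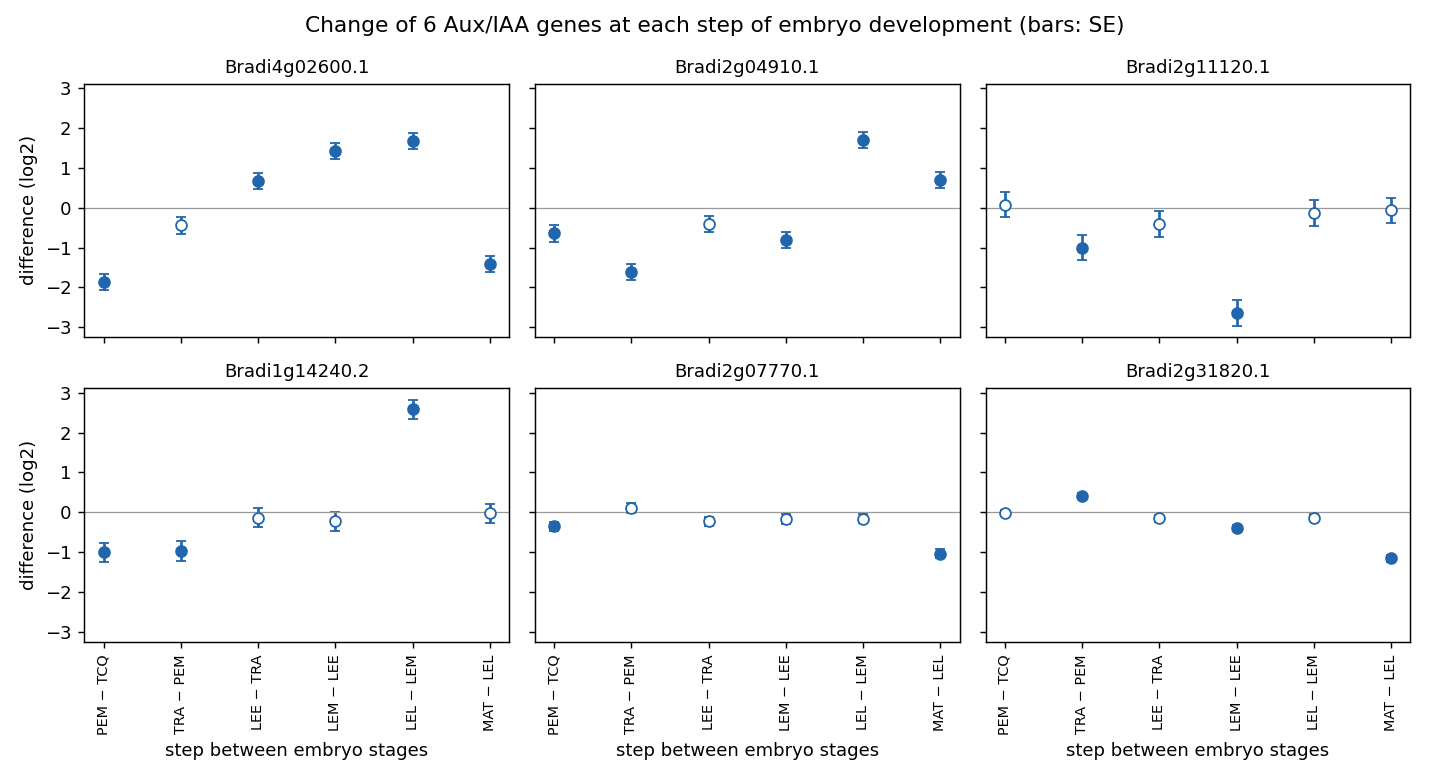
Difference (log2) of each of the 6 genes at the 6 steps between successive embryo stages, later minus earlier; bars are standard errors from limma, filled points have an adjusted p under 0.05 and open points do not. The upper left, upper middle and lower left panels show filled points of 1.68, 1.69 and 2.59 at LEL against LEM, and the 2 right-hand lower panels show filled points of −1.04 and −1.16 at MAT against LEL.

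Bradi4g02600.1 had its lowest stage mean at TRA and Bradi1g14240.2 at LEM, and both were higher again by LEL. In stage order, TCQ to MAT, Bradi4g02600.1 had 4.43 and 4.53, 2.59 and 2.65, 2.09 and 2.27, 2.68 and 3.02, 4.35 and 4.20, 6.02 and 5.89, and 4.59 and 4.51 log2 CPM. The TCQ, LEM and MAT libraries lay close together, PEM, TRA and LEE lay below all of them and LEL lay above every other stage. By limma the level fell by 1.86 in PEM relative to TCQ (SE 0.20, adjusted p 3e-06). It then rose by 0.67 in LEE relative to TRA (SE 0.20, adjusted p 0.03), by 1.42 in LEM relative to LEE (adjusted p 4e-05) and by 1.68 in LEL relative to LEM (adjusted p 1.4e-05), and it fell by 1.41 in MAT relative to LEL (adjusted p 3.6e-05). The rise at LEE was the least firm of these, since limma's adjusted p was 0.16 and 0.075 when TRA replicate 1 or 2 was left out, 0.2 when LEE replicate 2 was, and 0.068 in a fit of LEE and TRA alone. MAT and TCQ overlapped and differed by 0.07 (SE 0.20, limma adjusted p 0.77).

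Bradi1g14240.2 had, in the same stage order, 2.07 and 2.08, 1.30 and 0.85, 0.26 and −0.06, −0.29 and 0.21, −0.10 and −0.44, 2.33 and 2.31, and 2.46 and 2.13 log2 CPM. The libraries of TRA, LEE and LEM overlapped in turn and held 7 to 18 reads each, whereas LEL held 81 and 62 reads and MAT 72 and 51. LEL and MAT overlapped at the top, and both lay above every TCQ library. By limma the level fell by 1.00 in PEM relative to TCQ (SE 0.24, adjusted p 0.0024) and fell by 0.97 in TRA relative to PEM (SE 0.24, adjusted p 0.0067), and rose by 2.59 in LEL relative to LEM (SE 0.24, adjusted p 8.8e-07). The fall at TRA was past the threshold neither without PEM replicate 1 (limma adjusted p 0.088) nor without TRA replicate 2 (0.067), nor in a fit of TRA and PEM alone (0.059). MAT against TCQ differed by 0.22 (SE 0.24, limma adjusted p 0.42).

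Bradi2g04910.1, like Bradi1g14240.2, had its lowest stage mean at LEM. In stage order it had 4.90 and 4.86, 4.38 and 4.10, 2.60 and 2.65, 2.05 and 2.36, 1.84 and 0.96, 3.20 and 2.98, and 3.84 and 3.75 log2 CPM. No 2 neighbouring groups in its order of levels overlapped, and the share of tested genes with no such overlap was not counted. The LEM libraries, of 40 and 22 reads, were its least alike, with an SD of 0.62. By limma the level fell by 0.64 in PEM relative to TCQ (SE 0.20, adjusted p 0.015), fell by 1.62 in TRA relative to PEM (adjusted p 3.3e-05) and fell by 0.81 in LEM relative to LEE (adjusted p 0.0037), and rose by 1.69 in LEL relative to LEM (adjusted p 1.2e-05) and by 0.71 in MAT relative to LEL (adjusted p 0.0084). Over all stages it fell by 1.08 in MAT relative to TCQ (SE 0.20, limma adjusted p 0.00015).

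Several of these steps of Bradi2g04910.1 leaned on 1 library or on the shared spread of the 10 groups. The first fall missed the threshold of limma without TCQ replicate 1 (adjusted p 0.067) or without PEM replicate 2 (0.12), and the rise at MAT missed it without LEL replicate 2 (0.064). LEM against LEE was −1.25 without LEM replicate 1 and −0.37 without LEM replicate 2, with a limma adjusted p of 0.068 without replicate 2. In fits of the compared groups alone, limma gave an adjusted p of 0.15 for LEM against LEE and 0.073 for LEL against LEM.

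Bradi2g11120.1 fell along the stages with no late rise. It had 2.95 and 2.76, 2.82 and 3.05, 1.92 and 1.94, 1.50 and 1.54, −1.48 and −0.75, −1.40 and −1.10, and −0.80 and −1.82 log2 CPM in stage order. TCQ and PEM overlapped at the top, and LEM, LEL and MAT overlapped at the bottom, with about 1 to 5 estimated reads in a library. By limma it fell by 1.00 in TRA relative to PEM (SE 0.32, adjusted p 0.027) and fell by 2.64 in LEM relative to LEE (SE 0.32, adjusted p 7.1e-06), and the level fell by 4.16 in MAT relative to TCQ (SE 0.32, adjusted p 6.7e-09). The fall at TRA did not pass when any of the 4 PEM and TRA libraries was left out (limma adjusted p 0.07 to 0.14), whereas the fall at LEM passed whichever of the 20 libraries was left out.

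Bradi2g07770.1 and Bradi2g31820.1 had the narrowest range over the stages and were lowest in mature embryos. In stage order Bradi2g07770.1 had 8.23 and 8.35, 7.94 and 7.93, 8.02 and 8.06, 7.75 and 7.88, 7.78 and 7.50, 7.65 and 7.31, and 6.50 and 6.38 log2 CPM. LEE, LEM and LEL overlapped in turn, and both MAT libraries lay below all other embryo libraries. By limma it fell by 0.35 in PEM relative to TCQ (SE 0.12, adjusted p 0.019) and fell by 1.04 in MAT relative to LEL (SE 0.12, adjusted p 2.8e-06), and it fell by 1.85 in MAT relative to TCQ (adjusted p 8.1e-10). The small fall at PEM had a limma adjusted p of 0.12 without TCQ replicate 2, 0.068 without PEM replicate 1 and 0.074 without PEM replicate 2.

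Bradi2g31820.1 had 6.40 and 6.30, 6.36 and 6.30, 6.73 and 6.73, 6.59 and 6.56, 6.25 and 6.10, 6.06 and 6.01, and 4.84 and 4.92 log2 CPM in the same order. TRA was its highest stage, and the MAT libraries again lay below all other embryo libraries. By limma it rose by 0.40 in TRA relative to PEM (SE 0.08, adjusted p 0.0019), fell by 0.40 in LEM relative to LEE (SE 0.08, adjusted p 0.00087) and fell by 1.16 in MAT relative to LEL (SE 0.08, adjusted p 2.3e-08). It fell by 1.47 in MAT relative to TCQ (SE 0.08, limma adjusted p 1.8e-10). In MAT against TCQ, 4 of the 6 genes fell and 0 rose by limma, where 78.9% of tested genes changed (39.0% rose and 39.9% fell).

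The comparison of MAT with LEL depended on how the libraries were scaled. Setting the library medians equal moved the median of all genes by 0.25 (log2), from −0.01 to 0.24. The share of higher genes among those called went from 47.0% to 62.0%. On that scale the differences of MAT relative to LEL were −1.16 for Bradi4g02600.1, 0.95 for Bradi2g04910.1, −0.80 for Bradi2g07770.1 and −0.91 for Bradi2g31820.1, each still called by limma (adjusted p 6.9e-07 to 0.00068).

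In the endosperm, 5 of the 6 genes were lower in EEN than in embryos of the matched TRA stage and 1 was higher by limma, where 71.4% of tested genes differed (34.8% higher and 36.6% lower). Bradi2g07770.1 had 164 and 135 reads in EEN and 4438 and 6550 reads in TRA, and its difference was −4.85 (SE 0.12, limma adjusted p 4.7e-14). Bradi4g02600.1 had 5 and 8 reads in EEN and 109 and 176 reads in TRA, which with the depths is 17.4-fold lower in EEN (95% exact interval 10.01 to 33.1, counting error only), with a limma adjusted p of 1.9e-10. The difference of EEN from TRA was −3.53 for Bradi2g31820.1 (limma adjusted p 3e-14) and −2.74 for Bradi2g11120.1 (limma adjusted p 1.3e-06). Bradi2g11120.1 had only about 3 and 4 estimated reads in EEN, and no counting interval was computed for it. EEN and TRA libraries did not overlap for any of these genes, but the share of tested genes without overlap was not counted.

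Bradi1g14240.2 had no read in EEN and 10 and 11 reads in TRA (limma adjusted p 1.6e-07). With a floor of 3 reads over the group EEN was 5.55-fold lower, a ratio that leaves out the counting error of the TRA reads. Bradi2g04910.1 went the other way, with 218 and 196 reads in EEN and 57 and 85 reads in TRA, and was 1.85 higher in EEN (SE 0.20, limma adjusted p 7.4e-07).

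In LEN against embryos of the matched LEL stage, 4 of the 6 genes were lower and 2 were higher by limma, where 73.9% of tested genes differed, 37.2% lower and 36.7% higher. Bradi4g02600.1 had 1 and 2 reads in LEN and 2837 and 2010 reads in LEL, which is 950-fold lower in LEN (95% exact interval 325 to 4609, counting error only; limma adjusted p 2.6e-14). Bradi1g14240.2 had no read in LEN and 81 and 62 reads in LEL (limma adjusted p 8.7e-11). With the same floor on LEN it was 28.0-fold lower there, again without the counting error of the LEL reads. Both genes thus had almost no reads in the late endosperm at the stage where their embryo levels were highest or near it.

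The difference of LEN from LEL was −2.28 for Bradi2g07770.1 (SE 0.12, limma adjusted p 1e-10) and −1.27 for Bradi2g31820.1 (SE 0.08, limma adjusted p 1.4e-09), so both were lower in LEN. Bradi2g04910.1 was 2.42 higher in LEN (SE 0.20, limma adjusted p 2.9e-08), with 414 and 367 reads in LEN and 148 and 98 reads in LEL. Bradi2g11120.1 was 2.59 higher in LEN (SE 0.32, limma adjusted p 2.1e-06), with about 23 and 18 estimated reads in LEN and about 3 and 4 in LEL. Across both ages, Bradi4g02600.1, Bradi1g14240.2, Bradi2g07770.1 and Bradi2g31820.1 had all 4 endosperm libraries below all 14 embryo libraries, as did 8.66% of the tested genes.

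Between the endosperm ages, 4 of the 6 genes were higher in LEN than in EEN and 1 was lower by limma, where 62.1% of tested genes differed (31.3% higher and 30.9% lower). Bradi2g11120.1 rose by 2.15 (SE 0.32, adjusted p 2.5e-05), Bradi2g07770.1 by 2.01 (SE 0.12, adjusted p 9.4e-10), Bradi2g31820.1 by 1.56 (SE 0.08, adjusted p 3e-10) and Bradi2g04910.1 by 1.04 (SE 0.20, adjusted p 0.00036) in limma's test. In each of these 4 genes both LEN libraries lay above both EEN libraries, an order not counted over all tested genes. The rise of Bradi2g11120.1 rests on about 3 and 4 estimated reads in EEN and about 23 and 18 in LEN. The 6 genes had a median difference of 1.30 and all tested genes one of 0.00.

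The difference of LEN from EEN was −1.25 for Bradi4g02600.1 (limma adjusted p 7.1e-05), on 3 reads in LEN and 13 in EEN. Its ratio was 3.95-fold lower in LEN with a 95% exact interval of 1.09 to 21.6, and the limma adjusted p was 0.1 on a log2(CPM + 1) scale and 0.058 in a fit of LEN and EEN alone. Bradi1g14240.2 had no read in either age. Setting the library medians equal moved the median of all genes by −0.13 in LEN against EEN, 0.16 in EEN against TRA and 0.17 in LEN against LEL, and no gene of the 6 changed its direction or its call in these comparisons.

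**Figure D3:**
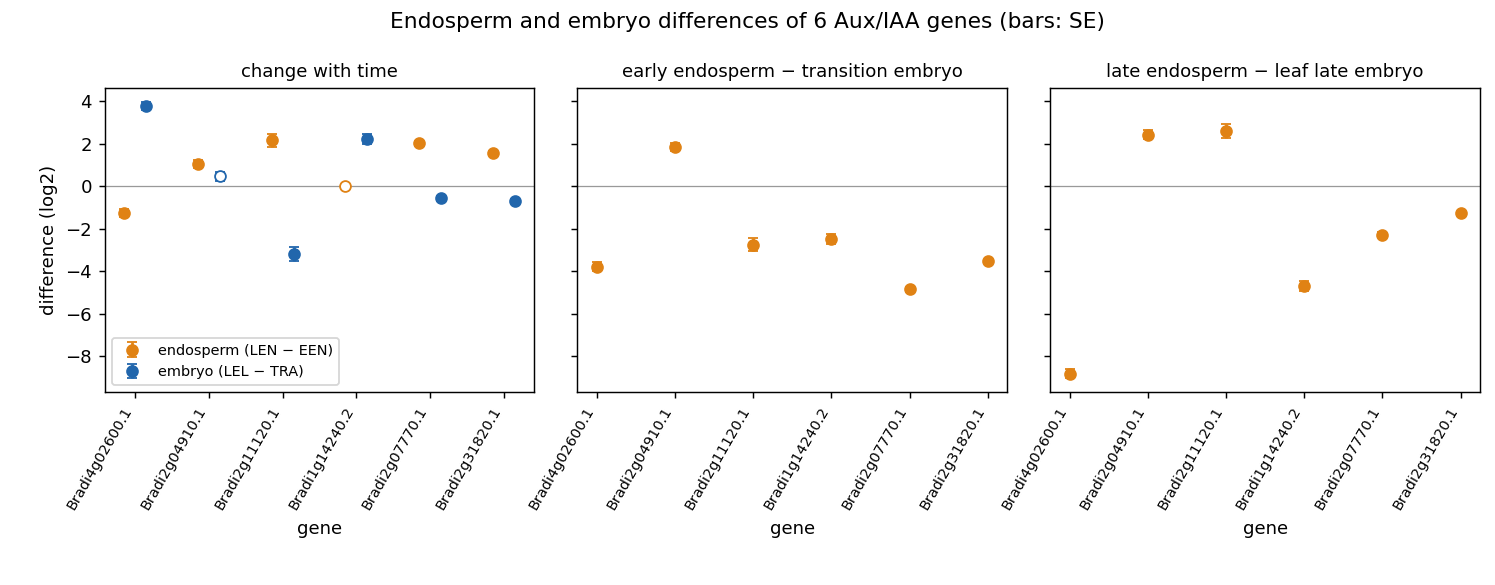
Differences (log2) of the 6 genes with standard errors from limma: left, LEN minus EEN in orange and LEL minus TRA in blue; middle, EEN minus TRA; right, LEN minus LEL. Filled points have an adjusted p under 0.05. Orange and blue lie on opposite sides of 0 for Bradi4g02600.1, Bradi2g11120.1, Bradi2g07770.1 and Bradi2g31820.1, and the share of tested genes that do so was not counted.

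The change with time in the endosperm was then set against that in the embryo over the matched interval. In LEL against TRA embryos, 2 of the 6 genes rose and 3 fell by limma, where 69.0% of tested genes changed (34.3% rose and 34.7% fell). Bradi4g02600.1 rose by 3.78 (adjusted p 3.9e-10) and Bradi1g14240.2 by 2.22 (adjusted p 7.3e-07) in LEL relative to TRA by limma. In limma Bradi2g11120.1 fell by 3.18 (adjusted p 3e-07), Bradi2g31820.1 fell by 0.69 (adjusted p 2e-06) and Bradi2g07770.1 fell by 0.56 (adjusted p 0.00057). Each of the last 3 genes thus fell in the embryo and rose in the endosperm. How many of all tested genes had such opposite changes was not counted, so nothing is read from that number. Bradi2g04910.1 differed by 0.47 (SE 0.20) and lay at the threshold, with a limma adjusted p of 0.051, of 0.14 with equal library medians and of 0.0039 to 0.05 in the 7 alternatives that called it higher in LEL, among them the fits without either LEM library.

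The difference between both changes, LEN minus EEN less LEL minus TRA, passed limma's interaction test for 5 of the 6 genes, where it passed for 62.5% of the tested genes. It was 5.33 for Bradi2g11120.1 (SE 0.45, limma adjusted p 9.6e-08), 2.57 for Bradi2g07770.1 (SE 0.17, adjusted p 6.9e-09) and 2.26 for Bradi2g31820.1 (SE 0.12, adjusted p 7.1e-10). The value of Bradi2g11120.1 rests on few estimated reads, about 3 and 4 in EEN and about 3 and 4 in LEL. The difference between both changes was −5.03 for Bradi4g02600.1 (SE 0.29, limma adjusted p 2.2e-09), which rose in the embryo. Its fall in the endosperm rests on 3 reads in LEN and 13 in EEN. Limma did not call that fall on a log2(CPM + 1) scale (adjusted p 0.1). For Bradi1g14240.2 the value of −2.22 (limma adjusted p 4.2e-05) is the embryo's rise alone, since its endosperm libraries held no read. Their identical values add no spread to limma's fit of this gene, and an endosperm change below the floor could not be seen. Bradi2g04910.1 differed by 0.57 (SE 0.29, limma adjusted p 0.095), and its adjusted p was 0.011 to 0.03 without either LEM library, on a log2(CPM + 1) scale or in a fit of these 4 groups alone.

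Because the genes were picked for high seed coat levels, the part that seed coat RNA could have in the other libraries was measured. As an upper limit, the 50th lowest ratio of a library's CPM to the SEC mean was taken among the 3209 genes at 6 log2 CPM or more in SEC. It was 0.0441% to 0.464% of the SEC level over the embryo libraries, 0.0712% to 0.0802% in EEN and 0.0840% to 0.0876% in LEN. Seed coat was sequenced only at the time of LEL. For the other stages and EEN the limit therefore assumes seed coat RNA like that of SEC, which was not tested. At that limit seed coat RNA would make up at most 1.30% of the embryo level of Bradi2g07770.1 and 1.91% of that of Bradi2g31820.1 in any stage. It would make up at most 11.3% for Bradi2g11120.1 (LEM replicate 1), 12.4% for Bradi2g04910.1 and 12.8% for Bradi1g14240.2 (both LEE replicate 1) and 19.9% for Bradi4g02600.1 (PEM replicate 1). The highest of these values was 54.6% when the limit was taken from genes at 9 log2 CPM or more in SEC, and 6.92% at the 10th lowest ratio.

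**Figure D4:**
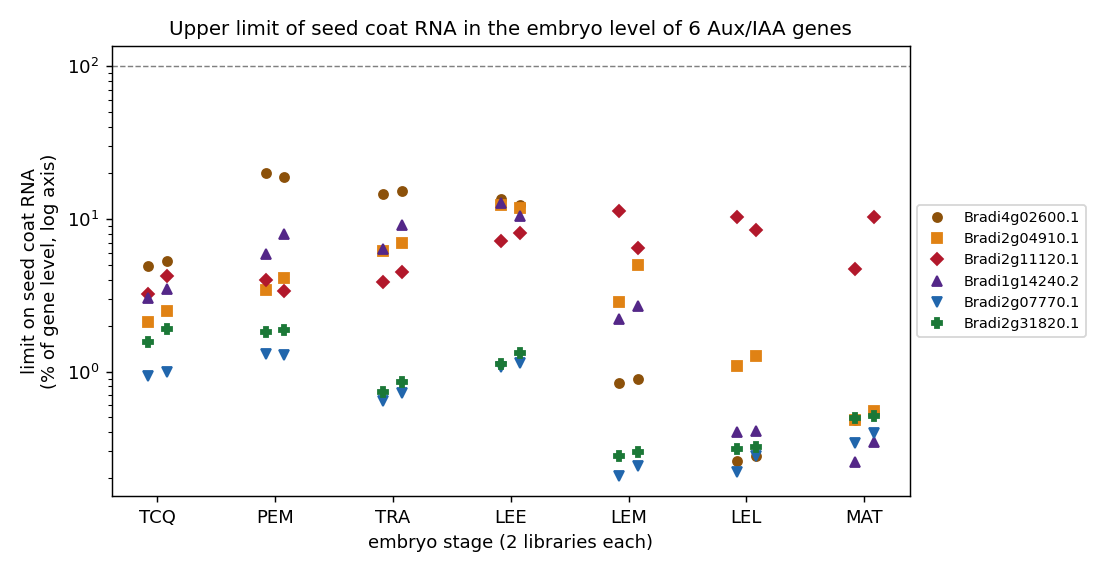
Upper limit of seed coat RNA like that of SEC, as a percent of each gene's level (log axis) in the 14 embryo libraries, from TCQ to MAT. The dashed line marks a limit as high as the gene's whole level. All points lie at or below 19.9%, and those of Bradi2g07770.1 and Bradi2g31820.1 at or below 1.91%.

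In the endosperm the same limit came to 80.3% and 45.3% of the level of Bradi4g02600.1 in EEN and to 200% and 133% in LEN, so in LEN the limit exceeded the level itself. The part of seed coat RNA in these few reads was not tested. For Bradi2g04910.1, Bradi2g11120.1, Bradi2g07770.1 and Bradi2g31820.1 the limit was at most 10.1% of the endosperm level. In the other direction, the limit on endosperm RNA in the SEC libraries was 0.0578% to 0.101% of the LEN level and 0.651% to 0.760% of the EEN level.

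The 6 genes did not share 1 pattern outside the seed coat. Over the 10 group means their 15 pairwise r values were all positive (0.002 to 0.965, median 0.649). Without SEC 10 of 15 were positive (−0.526 to 0.975), and over the 7 embryo stages 8 of 15 were (−0.67 to 0.928). The points share libraries, and the genes were picked on the SEC values, so these r values describe the profiles and carry no p.

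Bradi2g07770.1 and Bradi2g31820.1 were the most alike pair, with an r of 0.965 over the 10 groups, 0.975 without SEC and 0.928 over the embryo stages. Bradi4g02600.1 and Bradi1g14240.2 came next over the 10 groups, at 0.931, 0.909 and 0.674 on the same 3 sets. Bradi2g04910.1 and Bradi4g02600.1 had an r of 0.036 with SEC and −0.526 without it.

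Among 16915 genes that reached 3 log2 CPM in a group, the profile most like Bradi2g07770.1 over the 10 groups was that of Bradi2g59380.1 (r = 0.975), with Bradi2g31820.1 in rank 3. Bradi2g31820.1 was followed most closely by Bradi2g33590.1 (r = 0.973), with Bradi2g07770.1 in rank 5. For Bradi1g14240.2 the closest was Bradi1g07237.1 (r = 0.963), with Bradi4g02600.1 in rank 16, and for Bradi4g02600.1 it was Bradi1g62660.1 (r = 0.978), with Bradi1g14240.2 in rank 40. The closest to Bradi2g04910.1 was Bradi3g03642.1 (r = 0.989) and to Bradi2g11120.1 Bradi2g49110.1 (r = 0.982), and the nearest of the other 5 genes ranked 1677 for Bradi2g04910.1 and 1427 for Bradi2g11120.1. These r values and ranks include SEC, on which the genes were picked, so they only describe the profiles. Without SEC the r values, in the order named, were 0.969, 0.989, 0.947, 0.978, 0.984 and 0.969. Over the 7 embryo stages they were 0.671, 0.960, 0.894, 0.932, 0.985 and 0.980. The deposited table does not pair these identifiers with names.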

How the data were processed

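RNA from 20 Bd21 libraries (10 groups of 2) was amplified as antisense RNA and sequenced with 4 libraries per lane. The authors cleaned the reads (CASAVA and Trimmomatic in the submitters' processing notes, without versions), quantified them with Salmon on representative gene models and tested them with edgeR. The deposited values, 1 table, are log2 CPM as normalized by the authors, and all library columns were matched to a sample by name. The values need not come from whole counts, and how the gene-specific floors arose is not given in the sources used here.

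Tests were run with limma 3.58.1 (R 4.3.3) on the log2 values, in a model of 10 group means whose moderated variances follow a trend. A gene entered the fit when 2 or more libraries exceeded 0 log2 CPM and its values were not constant (22902 genes, with 847 left out), with Benjamini-Hochberg adjustment within a contrast and a threshold of 0.05. Whether replicates came from separate plantings is not stated, and the p-values measure only how far these libraries spread. SEC contrasts were not tested. Tables were made in Python 3.11.15 with pandas 2.3.3.

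Relative depth was computed from 1-read steps at the shared floors, and 93.4% to 95.8% of values under 30 reads came out whole within 0.02 reads. Intervals from reads are exact, at 95%, and cover counting error only. All 6 genes are described in full, and for each the gene with the highest r is named. The genes and the lists were chosen with earlier results of these data known. LEL against TRA and the reads were added after values had been seen. The refseq table matched 0 of the identifiers, so the Aux/IAA family, auxin pathway and tissue marker lists, sequences and positions were not used here. Alternatives were another pseudocount, 2 other filters, equal library medians, other variance models, a replicate block, fits of the compared groups alone and leaving out each library. The limma script was tested on simulated data. Replicate numbers were not treated as pairing the libraries in the main fit, since no source links them across groups. Same-numbered replicates had an r over 0.1 in 15 of 45 pairs of groups, and a link between only some groups was not tested.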

Additional observations from a re-analysis of the deposited data

Results flagged for a closer look

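In 5 genes the change with time in the endosperm (LEN minus EEN) differed from that in embryos over the matched interval (LEL minus TRA) by limma's interaction test, as it did for 62.5% of all tested genes. The difference of both changes was −5.03 (log2) for Bradi4g02600.1, 5.33 for Bradi2g11120.1, 2.57 for Bradi2g07770.1 and 2.26 for Bradi2g31820.1. The fitted changes of these 4 genes had opposite signs in endosperm and embryo, which was not counted over all tested genes. For Bradi4g02600.1 the endosperm fall rests on 3 reads in LEN and 13 in EEN (3.95-fold lower in LEN, 95% exact interval 1.09 to 21.6), and limma did not call it on a log2(CPM + 1) scale (adjusted p 0.1) or in a fit of LEN and EEN alone (0.058). For Bradi2g11120.1 the value rests on about 3 and 4 estimated reads in EEN and about 3 and 4 in LEL. For Bradi1g14240.2 the value was −2.22, with no read in any endosperm library, so a change there could not be seen. Groups of 2 libraries are too small for a check of single libraries that stand apart.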

How the results depend on the processing

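Of 2184 gene values recomputed, 2133 kept their direction and side of the threshold, 22 lost a call, 14 gained one and 15 changed sign, all of the last in comparisons not called. Leaving out 1 library, which leaves its group with 1 library assumed to vary like the others, gave 2 to 4 called genes (against 4) in PEM against TCQ and in TRA against PEM, and 0 to 2 (against 1) in LEE against TRA, which had 0 with only those groups fitted. The highest carry-over limit was 0.192% of an embryo library and 6.92% of a gene's level at the 10th lowest ratio, and 1.25% and 54.6% with a minimum of 9 log2 CPM, against 0.464% and 19.9%. Sign changes without 1 library spanned −0.036 to 0.19 for Bradi2g11120.1 and −0.069 to 0.026 for Bradi2g31820.1 (PEM against TCQ), −0.39 to 0.11 (LEE against TRA) and −0.48 to 0.023 (LEM against LEE) for Bradi1g14240.2, −0.50 to 0.23 for Bradi2g11120.1 and −0.33 to 0.0085 for Bradi2g07770.1 (LEL against LEM), and −0.57 to 0.45 for Bradi2g11120.1 and −0.19 to 0.14 for Bradi1g14240.2 (MAT against LEL), where equal library medians gave 0.19 and 0.22. The cause of these shifts was not tested. Over all tested genes, calls in TRA against PEM numbered 6699 and 4106 to 7264 without 1 library, in LEE against TRA 5013 and 2574 to 5647, and in LEL against LEM 8495 and 3803 with only those groups fitted. Deviations of same-numbered replicates had an r of −0.125 to 0.549 over 45 pairs of groups, above 0.1 in 15, so some pairs of groups shared a deviation and most did not. With the replicate number as a block the only changed call was Bradi2g04910.1 in LEL against TRA (0.47, limma adjusted p 0.043, against 0.051), which 6 other alternatives also called (0.0039 to 0.05). Low reads limit Bradi2g11120.1 in late embryos and in EEN, and Bradi4g02600.1 and Bradi1g14240.2 in endosperm.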
